A study of Mus musculus with 2 samples.

Results

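Immunoglobulin constant regions and the J chain were followed through the single-cell RNA sequencing (scRNAseq) of salivary glands from NOD/ShiLtJ and CD1 mice. The members were the 10 genes *Ighm*, *Ighd*, *Igha*, *Ighg1*, *Ighg2b*, *Ighg2c*, *Ighg3*, *Igkc*, *Iglc2* and *Jchain*, found by symbol among the 50768 genes counted in both libraries. An antibody is built from heavy and light chains, and the constant region of the heavy chain sets its class. A B cell first carries IgM (*Ighm*) and IgD (*Ighd*) on its surface, and class switching replaces these by an IgG or IgA constant region. A plasma cell devotes much of its RNA to the chains it secretes, and in glands such as the salivary gland it typically makes IgA, whose polymers are joined by the J chain and carried into the secretion.

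The NOD group was NOD/ShiLtJ, an inbred strain in which lymphocytes enter the salivary glands and which is used as a model of Sjögren's disease, and the control was CD1, an outbred strain. Submandibular glands with the adjacent sublingual glands of 20-week-old untreated females were pooled into 1 library per strain, from 4 mice each per the study's methods and 3 each per the sample labels. Cells carrying EpCAM or Ter119 and dead cells were depleted, so the numbers of cells describe what these steps left. With 1 library per strain, strain and library cannot be told apart, so the strains are compared without a test, and each 95% interval below covers counting error only.

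The tail ends of the heavy chains show why *Igha* and *Ighm* stand apart from the IgG genes in relation to *Jchain*. Each line gives the last 66 coding bases of the secreted form, 5′ to 3′, from the GENCODE transcripts of GRCm38, which is not the build of the counts. In *Igha* and *Ighm* the chain runs on for 18 codons beyond the shared ggtaaa, and the capitals mark the penultimate codon, TGC, which encodes the cysteine that links the chain into J chain polymers. *Ighg2b* and *Ighg2c* stop at the same ggtaaa, with 0 codons after it.
Igha: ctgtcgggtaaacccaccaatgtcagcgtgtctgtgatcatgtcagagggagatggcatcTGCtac
Ighm: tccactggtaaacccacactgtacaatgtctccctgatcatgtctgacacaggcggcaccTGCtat
Ighg2b: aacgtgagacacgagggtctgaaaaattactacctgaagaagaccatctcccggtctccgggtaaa
Ighg2c: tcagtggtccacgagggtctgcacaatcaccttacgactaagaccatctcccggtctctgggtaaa

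The light chains differ in how well the counting can tell them apart. The lines below give the last 66 coding bases of the λ constant genes from the same source, with every base that differs from *Iglc2* in capitals. *Iglc3*, which is not a member, differed from *Iglc2* at 1 of these positions and *Iglc1* at 16. Over the whole coding stretch *Iglc2* and *Iglc3* were 95.9% identical and *Ighg2b* and *Ighg2c* 85.6%, whereas *Igkc* and *Iglc2* were 54.1% identical. Of the 50-base stretches of *Iglc2*, 92.3% occurred in none of the other constant genes, against 100% for *Igkc*, *Ighm*, *Ighd*, *Igha* and *Jchain* and 94.5% for *Ighg2c*. Among stretches of 90 bases every one was found in 1 gene only. Reads of *Iglc2* and *Iglc3* may thus have been split or dropped in counting, so *Iglc1* and *Iglc3* are given beside *Iglc2*.
Iglc2: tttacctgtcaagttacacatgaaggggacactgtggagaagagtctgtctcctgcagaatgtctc
Iglc3: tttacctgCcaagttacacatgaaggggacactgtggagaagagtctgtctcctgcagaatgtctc
Iglc1: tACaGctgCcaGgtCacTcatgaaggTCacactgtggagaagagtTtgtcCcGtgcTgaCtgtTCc

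The heavy-chain members lie in 1 cluster on chromosome 12, in the order *Ighm*, *Ighd*, *Ighg3*, *Ighg1*, *Ighg2b*, *Ighg2c* and *Igha* along the direction of transcription. *Igkc* lies on chromosome 6, *Iglc2* on chromosome 16 and *Jchain* on chromosome 5.

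After filtering, 4917 NOD and 5674 CD1 barcodes were kept as cells, with medians of 6757 and 7534.5 unique molecular identifiers (UMIs), which count captured RNA molecules. B cells were taken as kept barcodes with at least 2 UMIs of *Cd79a* plus *Ms4a1*, and plasma-like barcodes as those with at least 5 UMIs of *Mzb1* plus *Derl3*. Barcodes of 10 to 100 UMIs, 64931 in NOD and 70666 in CD1, stood for empty droplets, whose RNA is free RNA of the suspension. Levels are UMIs per 1000000 UMIs of the class (CPM), with no correction for gene length, and a share of heavy-chain UMIs is a share of captured molecules. The libraries shared 6 kept barcodes, 0 of them B or plasma-like.

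The B gate was met by 663 NOD and 25 CD1 barcodes, of which 166 and 10 also met the plasma gate and were counted there. As B cells this left 497 NOD barcodes, 10.1% of the kept cells (interval 9.28 to 10.98%), and 15 CD1 barcodes, 0.264% (0.148 to 0.436%). In NOD, 494 of them also had a UMI of *Cd79b*, *Cd22*, *Fcer2a*, *Pax5* or *Bank1*, the genes chosen to check the gate. In CD1, 9 did. The other 6 CD1 barcodes had 0 UMIs of *Cd79a* and of all the checking genes, 2 to 4 UMIs of *Ms4a1*, and 3 to 15 UMIs of *Csf1r*, the receptor that marks macrophages. These 6 barcodes went against the label of B cells, and CD1 values are given below with and without them. The gate of another lineage (T or NK, macrophage, endothelial, epithelial or stromal) was also met by 214 of the 497 NOD and 8 of the 15 CD1 barcodes.

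The plasma gate held 172 NOD and 10 CD1 barcodes, and in NOD it joined unlike cells. In 139 of the NOD barcodes the B cell surface genes *Ms4a1* and *Cd22* together had at least as many UMIs as *Xbp1*, *Sdc1*, *Tnfrsf17* and *Derl3*, which belong to antibody-secreting cells. The other 33 NOD barcodes and all 10 in CD1 had more of the latter. This split was chosen after the values were seen. The first set is called B-surface and the second secretory below, and the genes used in the split are no finding about either. The members made up 0.210% of all UMIs in the B-surface set, against 0.199% in NOD B cells and 24.7% in the secretory set, so the name plasma-like goes against the data for the B-surface set.

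In secretory barcodes the members were the main product. They took 24.7% of all UMIs in NOD (24.7 to 24.8%) and 26.2% in CD1 (26.1 to 26.3%). Per barcode, the members summed to between 7 and 23352 UMIs in NOD, with a median of 6225, and to between 5965 and 18257 in CD1. The share of a barcode's UMIs reached 48.7% in NOD and 54.7% in CD1. The lowest NOD barcode, with 7 member UMIs among 22274, had 39 UMIs of *Siglech* and 11 of *Ccr9*, genes of plasmacytoid dendritic cells, and 8 of *Cd3e*, a T cell gene. It was counted as secretory by the rule.

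*Igha*, the constant region of IgA, led most secretory barcodes. A gene led a barcode when it had the most heavy-chain UMIs, with at least 3 in all and no tie. *Igha* led 28 of 33 NOD barcodes (84.8%, interval 68.1 to 94.9%) and 10 of 10 in CD1 (69.2 to 100%). The 5 other NOD barcodes were led by *Ighg2b* (2), *Ighg2c* (2) and *Ighm* (1). Of the summed heavy-chain UMIs, *Igha* made up 96.6% in NOD (96.5 to 96.7% of 120876) and 94.8% in CD1 (94.555 to 94.999% of 39025). The *Igha* count per *Igha*-led barcode ran from 3 to 13984 in NOD, with a median of 4064, and from 2061 to 5376 in CD1, with a median of 3842.5. The libraries thus overlapped in this count.

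A secretory barcode held 1 heavy chain almost alone. In *Igha*-led barcodes the leading gene had a median of 99.98% of the heavy-chain UMIs in NOD and 99.7% in CD1. In 1 CD1 barcode *Igha* had 4551 UMIs and *Ighg2b* 1914, so *Igha* made up 70.4%. This barcode supplied most of the 2009 *Ighg2b* UMIs of the CD1 secretory set. In 1 NOD barcode *Ighg2c* had 380 UMIs and *Igha* 53.

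Secretory barcodes led by an IgG gene were few, although IgG UMIs were common: 13 of 33 NOD barcodes and 5 of 10 in CD1 had at least 3 of them. The barcodes led by *Ighg2b* had 1351 and 282 UMIs of it, and those led by *Ighg2c* 1659 and 380. In CD1, *Ighg2c* summed to 13 UMIs over the 10 barcodes. *Ighg1* had 10 UMIs, all in 1 NOD barcode, and 0 in CD1. *Ighg3* had 0 in either library, which allows a level of up to 3 UMIs in each. Some mouse strains carry *Ighg2a* where others carry *Ighg2c*, and the counted genes hold no *Ighg2a*. Which of them these mice carry is unknown here, so a low *Ighg2c* count in CD1 cannot be told apart from an allele that was not counted.

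*Ighm* and *Ighd* were nearly absent from the secretory sets. *Ighm* had 234 UMIs in NOD, of which 182 lay in the single barcode it led, and 13 in CD1. *Ighd* had 2 UMIs in each library. The *Ighm*-led barcode had 192 UMIs of *Igkc* and 1 of *Jchain*. It also had 1 UMI of *Xbp1*, the transcription factor of the secretory programme, and 79 of *Mzb1*, which helps fold antibody chains.

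**Figure D1:**
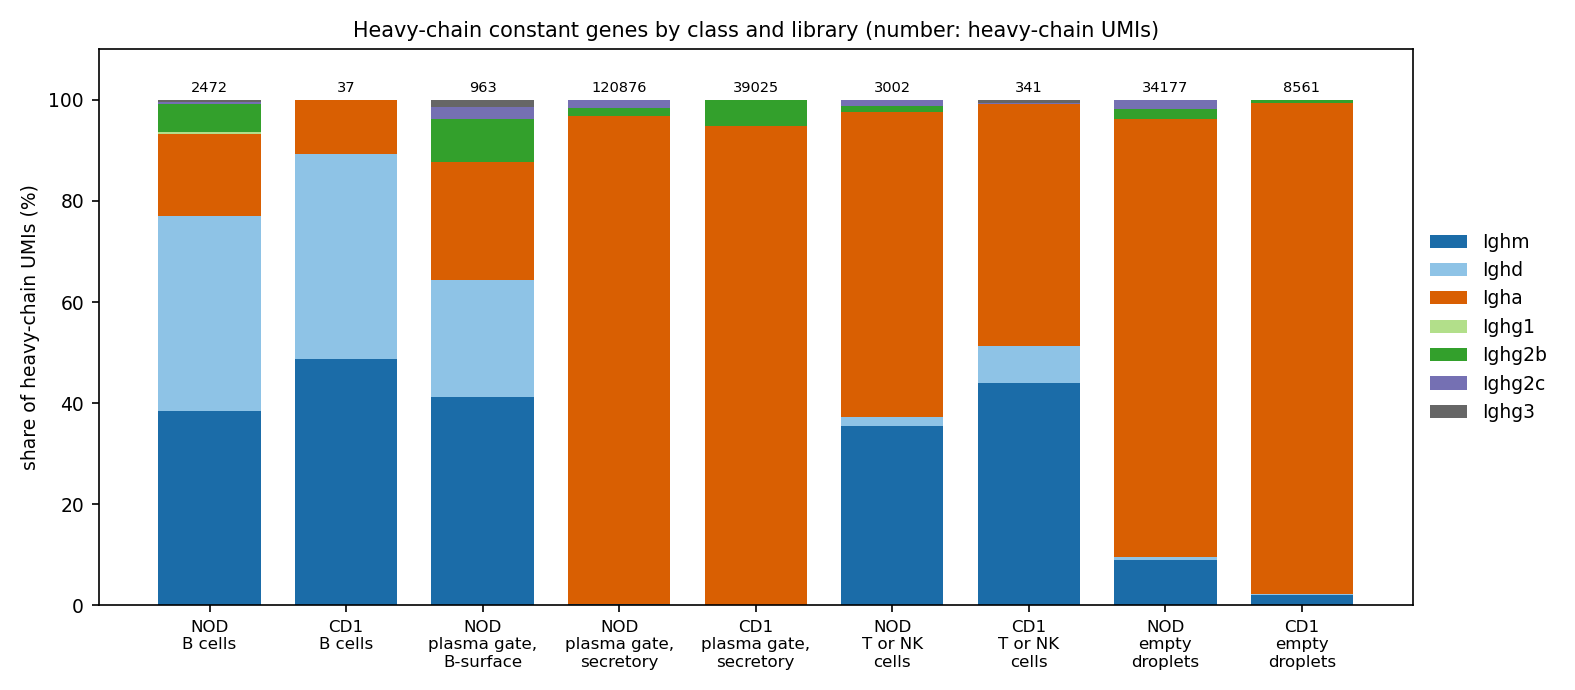
Share of heavy-chain UMIs (y axis, %) taken by each of the 7 heavy-chain members in each class and library (x axis), with the number of heavy-chain UMIs above each bar. *Ighm* and *Ighd* make up most of the B cell bars, and *Igha* makes up 96.6% and 94.8% of the secretory bars. *Igha* also makes up most of the empty droplet bars, where the *Ighm* share is larger in NOD (9.06%) than in CD1 (2.07%).

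*Igkc*, the κ light chain, was the light chain of the secretory barcodes in both libraries. It had 42963 UMIs in NOD against 1031 of *Iglc2*, or 97.7% of the sum of both (97.5 to 97.8%), and 57722 against 919 in CD1, or 98.4% (98.3 to 98.5%). *Igkc* exceeded *Iglc1*, *Iglc2* and *Iglc3* together in 32 of 33 NOD barcodes and 10 of 10 in CD1. The exception was the barcode with 7 member UMIs. No secretory barcode with more member UMIs was led by a λ gene.

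The amount of *Igkc* relative to the heavy chain differed between the libraries. In *Igha*-led barcodes *Igkc* per heavy-chain UMI ran from 0.0701 to 0.955 in NOD, with a median of 0.294 (n = 28), and from 0.945 to 2.27 in CD1, with a median of 1.38 (n = 10). The ranges touched only at their edge. Of the 10 CD1 barcodes, 9 also met the gate of another lineage. The 1 that did not had the lowest CD1 value, 0.945, which lies within the NOD range. The part of such mixed barcodes in the difference was not tested. The *Igkc* count itself ran from 2 to 3858 in NOD and from 2214 to 9176 in CD1. Over the summed sets the *Igkc* level was 47944 CPM against 116188 CPM in CD1 (log2 -1.28, -1.30 to -1.26), while that of *Igha* was 130296 against 74453 CPM (log2 0.81, 0.79 to 0.82). Of the 7 members with at least 20 UMIs in the secretory sets, *Ighm* and *Ighg2c* were at least 2-fold higher in NOD with an interval beyond 0, and *Igkc* was lower. Of all 7081 genes with that many UMIs, 5.39% were higher and 6.04% lower by the same rule. The *Ighm* and *Ighg2c* values rested on 1 and 2 barcodes.

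*Jchain* was abundant beside the chains it joins. It had 56898 UMIs in the NOD secretory set (63494 CPM) and 32470 in that of CD1 (65358 CPM), so the levels differed by -0.04 on the log2 scale (-0.06 to -0.02). *Jchain* per heavy-chain UMI in *Igha*-led barcodes ran from 0.0891 to 1.07 in NOD, with a median of 0.444, and from 0.471 to 1.42 in CD1, with a median of 0.836. *Jchain* was also present in IgG-led barcodes, with 253 and 37 UMIs in those led by *Ighg2b* and 474 and 369 in those led by *Ighg2c*, although their chains lack the tail shown above. It had 1 UMI in the *Ighm*-led barcode, whose chain has that tail.

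**Figure D2:**
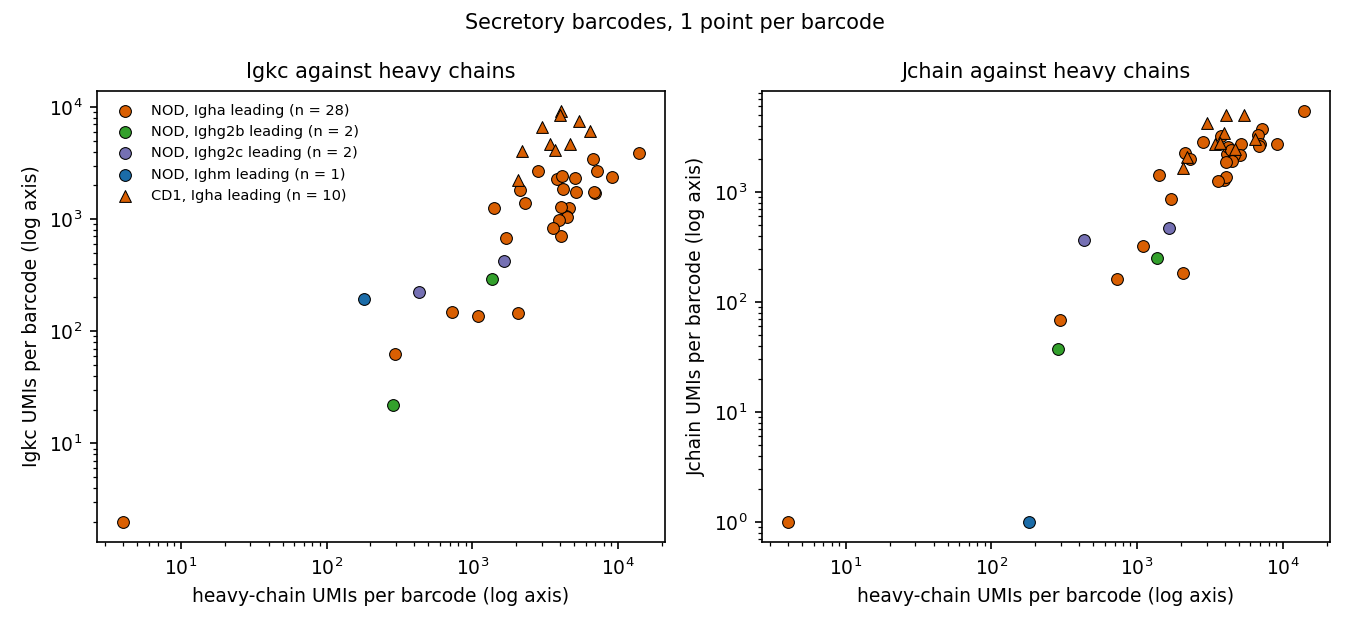
Each secretory barcode as a point, with its heavy-chain UMIs on the x axis and its *Igkc* (left) or *Jchain* UMIs (right) on the y axis, both on log axes; circles are NOD, triangles CD1, and colour gives the leading heavy chain. CD1 points lie above most NOD points for *Igkc* at a like heavy-chain count, and the *Ighm*-led barcode has 1 *Jchain* UMI.

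Genes of other cell types moved with the secretory barcodes. In CD1, 9 of 10 met the gate of another lineage, and in NOD 19 of 33 did. *Ncr1* and *Klrd1*, genes of natural killer cells, each had UMIs in 8 of 10 CD1 barcodes, up to 73 and 41, while *Cd3d* and *Cd3e* had 0 in all 10. In NOD, *Ncr1* had UMIs in 8 of 33 barcodes and *Cd3e* in 12. The secretory barcodes were also deep, with 28809 to 79609 UMIs in CD1 and a median of 22243 in NOD. All 10 CD1 barcodes were among the highest Scrublet doublet scores of their library. The part of such mixtures in the member values was not tested. In barcodes of the T or NK gate, the members took 0.0222% of UMIs in NOD and 0.0136% in CD1.

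The secretory barcodes were compared with the B cells of the NOD library, gene list by gene list. Here the members take so much of the RNA that the levels of all other genes are pressed down in the secretory set. Of the 9 measured genes of the secretory programme that the split did not use, 7 were at least 2-fold higher with an interval beyond 0, while 9.45% of all 10546 genes were. *Txndc5*, a folding enzyme of the endoplasmic reticulum, stood at 1539 CPM against 77.8, a log2 ratio of 4.31 (4.12 to 4.50), and *Prdm1*, the transcription factor that sets the plasma cell fate, at 114 against 7.36, a log2 ratio of 3.95 (3.32 to 4.63). *Irf4* (0.59) and *Pou2af1* (0.86), transcription factors that B cells also use, stayed under 2-fold. All 5 unused genes of the mature B cell surface were lower, against 19.9% of all genes, with *Fcer2a*, an IgE receptor, at 1.12 CPM against 394. All 4 unused checking genes of B cells were lower and all 4 unused plasma cell genes higher. These lists share *Cd79b* and *Fcer2a*, and *Prdm1*, *Fkbp11* and *Txndc5*, with the lists above, so they are no separate support. The split itself was made with other genes of the same lists. *Bst2* (726 against 72.5 CPM) and *Runx2* (229 against 45.0 CPM), from the list of plasmacytoid dendritic cells, were higher too. *Siglech* and *Ccr9* of that list were also higher, but 39 of the 41 *Siglech* and 11 of the 14 *Ccr9* UMIs lay in 1 barcode. *Cox6a2*, the last of the 5 genes, had 13 UMIs against 0, short of the 20 UMIs asked of a compared gene.

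The genes that guide IgA plasma cells were unequal. *Ccr10*, the receptor for a chemokine of salivary and mammary glands, had 118 UMIs in the 33 NOD secretory barcodes and 1 in the 497 B cells, a log2 ratio of 8.86 (6.36 to 14.18). *Ccr9* was higher too (14 and 7 UMIs), although 11 of its 14 UMIs lay in the barcode with 7 member UMIs. *Cxcr4* was lower, at 6.70 CPM against 42.2, *Itga4* and *Itgb7* stayed under 2-fold, and *Pigr*, which carries polymeric IgA across the epithelium, had 1 UMI against 16. *Ccl28*, which encodes the ligand of *Ccr10*, had 0 UMIs in both sets. Of the 5 genes of class switching and the germinal centre described here, *Ung* was higher (log2 1.74), *Bcl6* was lower (log2 -2.20), *S1pr2* had 7 UMIs against 1, *Mef2b* had 0 against 1, and *Apex1* stood at 14.5 against 13.9 CPM. Among the constant genes that are not members, *Iglc1* was higher (log2 1.95), *Iglc3* stood at 280 CPM in both sets, and *Ighe* (3 UMIs against 1) and *Iglc4* (2 against 5) were nearly absent. In CD1 this comparison had only 15 B cells and was not made.

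B cells carried *Ighm* and *Ighd* together. In NOD B cells *Ighm* had 951 UMIs (269 CPM, 252 to 287) and *Ighd* 952 (269 CPM, 253 to 287), and together they made up 77.0% of the heavy-chain UMIs (75.3 to 78.6% of 2472). Both were found in 305 of 497 cells, *Ighm* alone in 80, *Ighd* alone in 56 and neither in 56. The highest cell had 10 UMIs of *Ighm* and the highest for *Ighd* 12, so these counts were low per cell. Among the 348 cells with a leading gene, *Ighd* led 156 and *Ighm* 143.

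Thinned to 500 UMIs per cell, with 0 cells left out, *Ighm* was found in 9.66% of NOD B cells against 2.80% of T or NK cells, and unthinned in 77.5% against 30.8%, at median depths of 6382 and 7117 UMIs. *Ighd* was found in 13.3% against 0.136%, and unthinned in 72.6% against 2.04%. Between these genes, *Ighd* was thus the one that hardly appeared outside B cells in NOD.

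Switched heavy chains in NOD B cells fell into 2 kinds. *Ighg2b* had at least 3 UMIs in 19 of 497 B cells (3.82%, 2.32 to 5.91%) and in 1 of 2211 T or NK cells (0.0452%, up to 0.252%). It led 19 B cells, *Ighg1* led 1 and *Ighg3* led 1. *Ighg2c* led 0 and had 11 UMIs. *Igha* had at least 3 UMIs in 29 B cells (5.84%, 3.94 to 8.27%) but also in 94 T or NK cells (4.25%, 3.45 to 5.18%), and its level was 113 CPM (102 to 125) in B cells and 99.8 CPM (95.2 to 104) in T or NK cells. The *Igha* of NOD B cells as a class was therefore near the level found in cells that should lack it. *Jchain* was alike, with 40.5 CPM in B cells (34.1 to 47.7) and 39.1 in T or NK cells (36.2 to 42.0). Subtracting the T or NK level of each gene raised the *Ighm* plus *Ighd* share in NOD B cells from 77.0% to 89.3%.

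The 15 CD1 B barcodes had 37 heavy-chain UMIs, 18 of *Ighm*, 15 of *Ighd*, 4 of *Igha* and 0 of the 4 IgG genes, so *Ighm* plus *Ighd* made up 89.2% (74.6 to 97.0%). The 4 IgG genes at 0 of 37 allow a share of up to 9.49%. Of the 7 barcodes with a leading gene, *Ighd* led 4 and *Ighm* 3. In the 9 barcodes with a checking gene, *Ighm* and *Ighd* had 15 UMIs each, *Igkc* 128 and *Iglc2* 38. The 6 others had 0 UMIs of both light chains.

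The level of the members in B cells had no stable order between the strains. Over all B barcodes, their summed level was 1988 CPM against 1516 CPM in CD1 (log2 0.39, 0.19 to 0.60), while the median gene stood at 0.16. With a checking gene required, which leaves 494 and 9 barcodes, it was -0.46 (-0.66 to -0.25). Of the 7 members with at least 20 UMIs, *Ighm*, *Ighd*, *Igha* and *Iglc2* were at least 2-fold higher in NOD with an interval beyond 0. *Ighg2b* had 138 UMIs against 0, and a floor of 3 UMIs for CD1 puts it at least 1.76-fold higher, which falls short of 2-fold. Of all 10159 genes, 5.26% were higher and 8.87% lower by this rule, and 0 members were lower. However, with a checking gene required the log2 values of *Ighm*, *Ighd* and *Iglc2* were 0.40, 0.40 and 0.17, each with an interval across 0. *Igha* stood at 114 CPM (103 to 125) against 27.4 CPM (3.32 to 99.1), the latter on 2 UMIs in CD1. It was also higher in NOD in cells that should lack it. There the log2 values were 1.24 (1.00 to 1.48) in T or NK cells, 2.12 (1.84 to 2.41) in macrophages and 2.20 (2.00 to 2.40) in endothelial cells. The *Igha* value is thus not particular to B cells. *Ighg2b* stood at 39.4 CPM against 0 UMIs that allow up to 50.6 CPM in CD1, so no excess of it was shown. *Igkc* was lower in NOD in either case, at 666 against 947 CPM (-0.51, -0.77 to -0.24) or 670 against 1755 CPM (-1.39, -1.65 to -1.12).

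The B-surface set of the plasma gate was led by *Ighm*, with less *Ighd* and more IgG than the NOD B cells. *Ighm* had 397 of its 963 heavy-chain UMIs (41.2%, 38.1 to 44.4%), *Ighd* 223 (23.2%, 20.5 to 26.0%) and *Igha* 225 (23.4%, 20.7 to 26.2%). The share of *Ighd* was thus lower than in NOD B cells, where it was 38.5% (36.6 to 40.5%). *Ighm* led 53, *Ighd* 25, *Igha* 16 and *Ighg2b* 8 of the 105 barcodes with a leading gene. The 4 IgG genes made up 12.3% (10.2 to 14.5%) against 6.84% (5.87 to 7.90%) in NOD B cells, although 18 of the 24 *Ighg2c* UMIs lay in 1 barcode.

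Light chains in NOD B cells were mixed within single barcodes. *Igkc* had 2351 UMIs (666 CPM) and *Iglc2* 2058 (583 CPM), so *Igkc* made up 53.3% of the sum (51.8 to 54.8%), and 39.4% when *Iglc1* (574) and *Iglc3* (989) were added. In CD1 *Igkc* made up 77.1% (70.0 to 83.3%) of 166 UMIs. A B cell as a rule expresses either κ or λ, but 436 of 497 NOD B cells (87.7%, 84.5 to 90.5%) had UMIs of *Igkc* and of an *Iglc* gene. The 3 *Iglc* genes together exceeded *Igkc* in 290 cells, *Igkc* exceeded them in 159, and they tied in 48. Counts were low, with medians of 4 UMIs of *Igkc* and 6 of the *Iglc* genes per cell. The highest cell for the *Iglc* genes had 74 UMIs and the highest for *Igkc* 21.

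In T or NK cells the light chains seldom occurred together, unlike in the plasma gate. There, 130 of 139 NOD B-surface, 33 of 33 NOD secretory and 10 of 10 CD1 secretory barcodes had *Igkc* and an *Iglc* gene. In NOD T or NK cells, 10 of 2211 (0.452%) had both *Igkc* and an *Iglc* gene, and *Iglc2* stood at 1.65 CPM (1.11 to 2.36) against 583 in B cells. *Igkc* was more frequent there, in 237 of these cells (10.7%) at 15.6 CPM, and 227 of them had no UMI of an *Iglc* gene. *Iglc3* reached 41.7 CPM in the NOD cells of the *Siglech* and *Ccr9* gate. Of the 9 CD1 barcodes with a checking gene, all 9 had both light chains, and *Igkc* exceeded the *Iglc* genes in 8. *Igkc* shared no 50-base stretch with an *Iglc* gene. In the NOD secretory barcodes, rich in *Igkc*, it made up 95.9% of *Igkc* plus the 3 *Iglc* genes (97.7% in CD1). Whether UMIs of 1 light chain were counted as the other was not tested. In B cells, 1 NOD barcode had 58 *Iglc* UMIs and 0 of *Igkc*. Of the 497 NOD B cells, 214 also met the gate of another lineage. Whether the mixed barcodes held more than 1 cell was not tested.

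**Figure D3:**
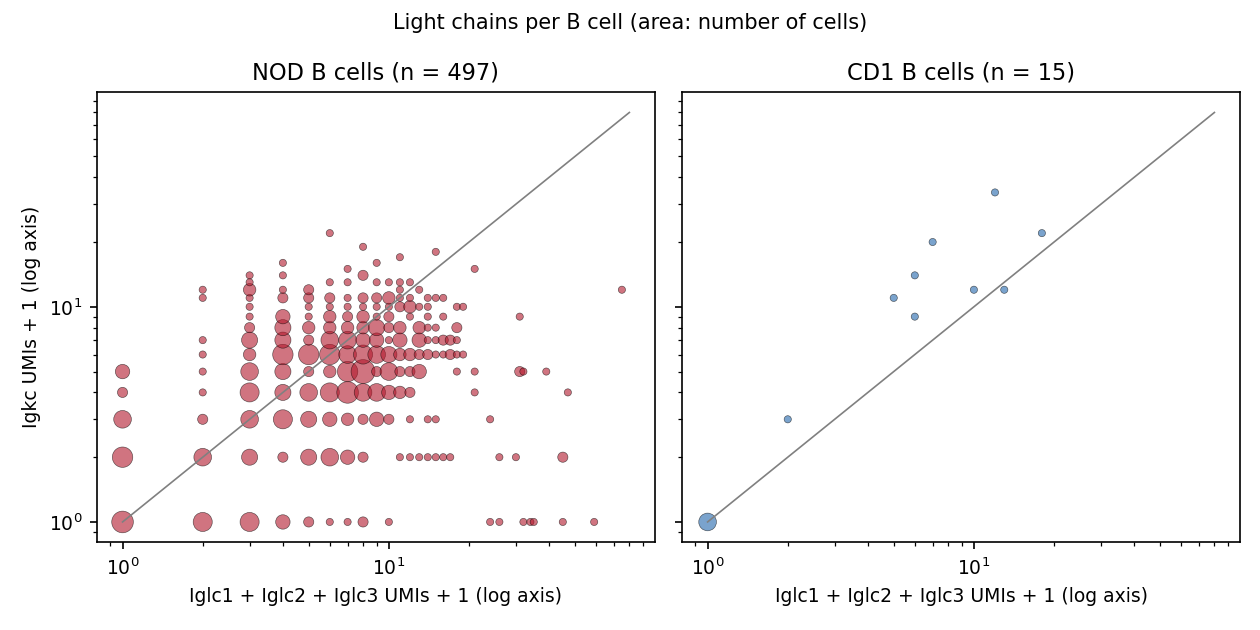
Each circle gives the NOD (left) or CD1 (right) B cells with a given number of UMIs of *Iglc1*, *Iglc2* and *Iglc3* together (x axis) and of *Igkc* (y axis), 1 added to both, on log axes; the area is the number of cells and the line marks equal counts. NOD cells spread around and below the line, with a tail of cells at high *Iglc* counts and mostly 0 to 4 *Igkc* UMIs, and 8 CD1 cells lie above it.

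Empty droplets carried the members as free RNA. *Igha* led the heavy chains and *Igkc* the light chains, as in the secretory barcodes but with other shares. The members took 1.12% of their UMIs in NOD (1.11 to 1.13%) and 0.553% in CD1 (0.545 to 0.561%). *Igha* made up 86.5% of the heavy-chain UMIs in NOD (86.2 to 86.9% of 34177) and 97.2% in CD1 (96.8 to 97.6% of 8561). *Ighm* made up 9.06% in NOD and 2.07% in CD1, against 0.194% and 0.0333% in the secretory sets. The 4 IgG genes made up 3.87% and 0.584%, against 3.21% and 5.18% there. *Igkc* made up 85.9% and 96.5% of *Igkc* plus *Iglc2*, against 97.7% and 98.4% in the secretory sets. This RNA was spread thinly: 53.0% of NOD and 21.8% of CD1 droplets had a member UMI, the highest had 25 and 33, and droplets with 5 or more held 4.47% and 1.22% of the member UMIs.

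Free RNA and the secretory barcodes differed in how much *Igha* there was for each *Igkc*. There were 5.36 *Igha* UMIs per *Igkc* UMI in NOD droplets and 1.88 in CD1, against 2.72 and 0.641 in the secretory sets. *Igha* relative to *Igkc* was thus higher in free RNA in each library, and higher in NOD than in CD1 in both places.

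Between the libraries, 6 of the 8 members with at least 20 UMIs in empty droplets were at least 2-fold higher in NOD with an interval beyond 0, beside 9.39% of all 13264 genes (16.9% were lower by the same rule). For *Ighm* the level was 632 CPM (610 to 655) against 52.5 CPM (45.1 to 60.8) in CD1, a log2 difference of 3.59 (3.37 to 3.82). *Ighd* stood at 37.6 against 3.26 CPM (3.52, 2.65 to 4.55), *Ighg2b* at 144 against 13.9 (3.37, 2.94 to 3.83), *Iglc2* at 184 against 47.5 (1.96, 1.71 to 2.21) and *Igha* at 6036 against 2469 (1.29, 1.25 to 1.32). *Ighg2c* had 608 UMIs against 2 in CD1 (log2 7.71, 5.85 to 10.76), under the limit on this gene given above. *Jchain* was 0.83 higher (0.78 to 0.87), and *Igkc* stood at 1127 against 1311 CPM, a log2 ratio of -0.22 (-0.28 to -0.16). The call of *Igha* rested on the range of droplets, since it stood at 0.51 over 1 to 50 UMIs and 0.98 over 20 to 50. Over 1 to 50 UMIs *Ighg2b* stood at 1.66 and *Igkc* at -1.12, at least 2-fold lower, while *Ighm* (2.81), *Ighd* (3.16), *Ighg2c* (6.64) and *Iglc2* (1.57) kept a value past 2-fold.

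The sum of the members depended on which droplets were taken. It was 1.02 higher in NOD on the log2 scale (0.99 to 1.04) over 10 to 100 UMIs, 0.68 over 20 to 50 and 0.16 over 1 to 50. The NOD droplets lay mostly at 51 to 100 UMIs (59698 of them) and the CD1 droplets mostly at 21 to 50 (39647). Within 51 to 100 UMIs the members took 1.13% in NOD and 0.539% in CD1, and within 21 to 50 they took 0.937% and 0.580%. Within 1 to 9 UMIs the shares were 0.576% and 0.498%. The *Igha* share of heavy chains stayed between 86.5% and 87.8% in NOD and between 95.9% and 100% in CD1 over these ranges of UMIs and the one above 100.

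**Figure D4:**
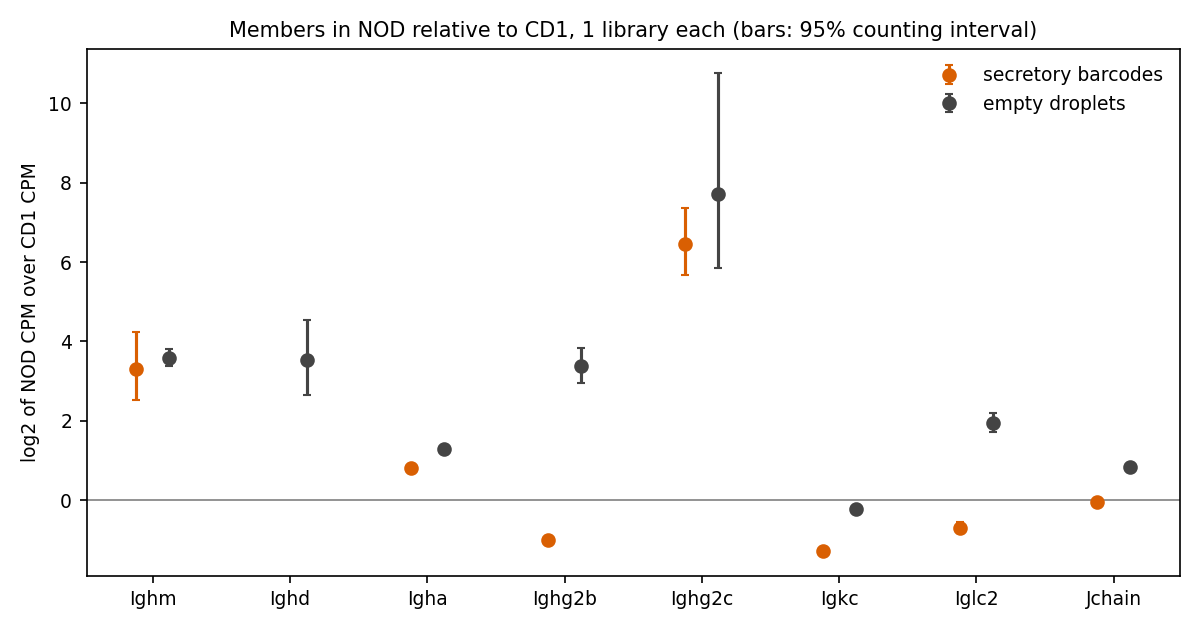
Log2 ratio of NOD over CD1 CPM (y axis) for the members with at least 20 UMIs in the secretory barcodes (orange) and the empty droplets (dark grey), with 95% counting intervals as bars. In empty droplets *Ighm*, *Ighd*, *Ighg2b* and *Ighg2c* lie above 3 and *Igkc* at -0.22, and in secretory barcodes *Igkc* lies at -1.28.

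Cells that do not make antibody held member UMIs as well. In NOD endothelial cells (855) *Igha*, *Jchain*, *Igkc* and *Ighm* stood at 1.55%, 1.67%, 1.38% and 1.74% of their levels in the empty droplets, close to a single proportion. In CD1 endothelial cells (2356) they stood at 0.824%, 0.763%, 0.540% and 0.856%. *Igha*, *Jchain* and *Igkc* were similar in T or NK cells and macrophages, at 1.28% to 1.65% in NOD and 0.549% to 2.19% in CD1. The highest of these, *Jchain* in CD1 T or NK cells, rested on 1 barcode that held 73 of its 137 UMIs.

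*Ighm* stood apart from that proportion in T or NK cells and macrophages. In CD1 macrophages it had 651 UMIs in 406 of 1019 cells, at 80.8 CPM, or 154% of its level in the empty droplets, whereas *Igkc* there was at 7.19 CPM and *Igha* at 22.7. In CD1 T or NK cells it was at 39.0 CPM (74.2%) and in CD1 endothelial cells at 0.450 CPM, with UMIs in 8 of 2356 cells. In NOD it was at 79.7 CPM in macrophages (12.6%), 58.7 in T or NK cells (9.28%) and 11.02 in endothelial cells (1.74%). The macrophage level was alike in both libraries. The highest macrophage had 5 *Ighm* UMIs in NOD and 6 in CD1, so no single barcode carried the value.

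*Ighd* was far below *Ighm* in macrophages and T or NK cells and had 0 UMIs in endothelial cells of both libraries. In CD1 it stood at 5.58 CPM in macrophages (45 UMIs) and 6.49 in T or NK cells (25 UMIs). In NOD it stood at 2.18 CPM in macrophages (5 UMIs) and 2.86 in T or NK cells. Unlike *Ighm*, it was thus not higher in macrophages. In T or NK cells *Ighm* was higher in NOD (log2 0.59, 0.34 to 0.85) and *Ighd* lower (-1.18, -1.90 to -0.43). In CD1 macrophages the B cell genes *Cd79a*, *Cd79b* and *Ms4a1* had 2, 21 and 0 UMIs. Among those with *Ighm* 0.493% had *Cd79a*, 1.48% *Cd79b* and 5.42% *Igkc*, against 0.196%, 1.67% and 5.40% of all CD1 macrophages. In NOD macrophages *Cd79b* had 32 UMIs, found in 14.9% of the cells with *Ighm* and 8.54% of all. In NOD T or NK cells it had 116 UMIs, found in 4.41% of the cells with *Ighm* and 4.39% of all. Whether B cell RNA had a part in the *Ighm* values was not tested. The gate of *Siglech* and *Ccr9* (1040 CD1 and 183 NOD barcodes) gave like values, with *Ighm* at 81.8 and 94.0 CPM and *Igkc* at 7.12 and 11.4 CPM. It had been set for plasmacytoid dendritic cells, but 97.6% of its CD1 and 72.7% of its NOD barcodes also met the macrophage gate, so it is named by its genes only.

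**Figure D5:**
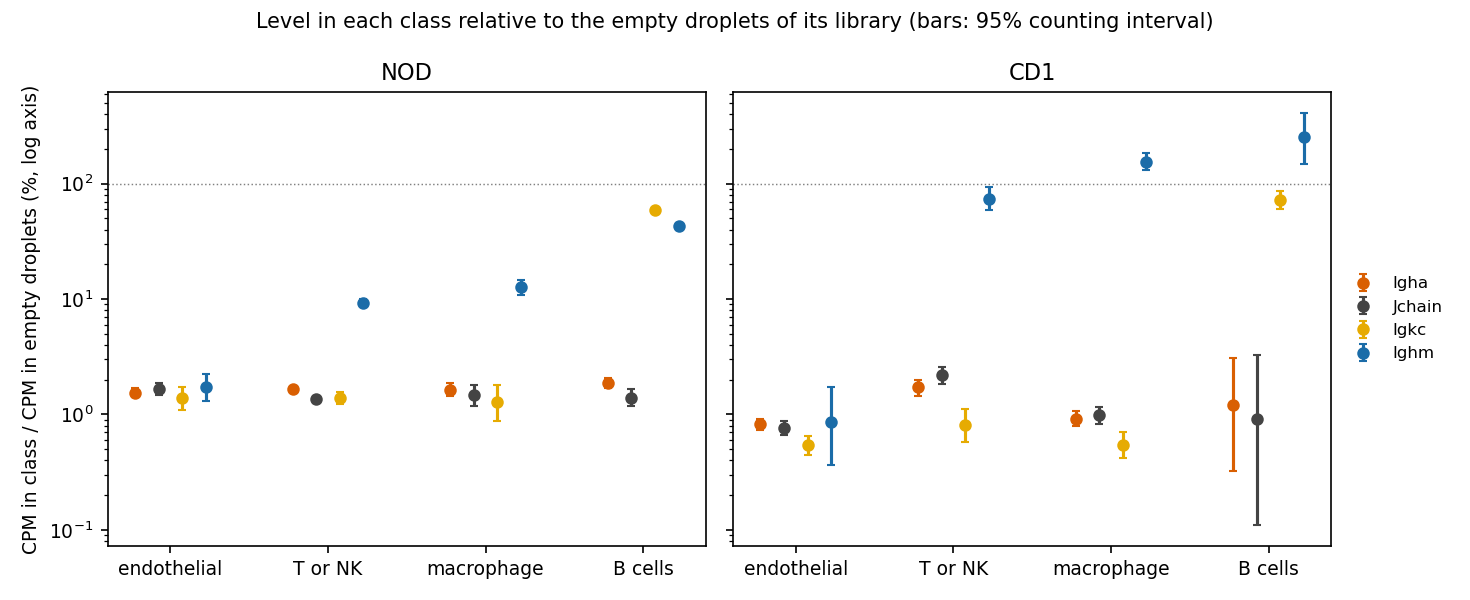
Level of *Igha*, *Jchain*, *Igkc* and *Ighm* in each class (x axis) as a percentage of the level in the empty droplets of the same library (y axis, log axis), with 95% counting intervals as bars and a dotted line at equal levels. The 4 genes lie close together in endothelial cells, whereas *Ighm* lies apart in T or NK cells and macrophages, at 12.6% in NOD and 154% in CD1 macrophages.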

How the data were processed

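The authors deposited raw UMI counts per gene and barcode, unfiltered for cells, from 1 10x library of each strain. Per the submitters' processing notes, Cell Ranger 8.0.0 and GRCm39 were used, then Seurat 5.0.1 in R 4.3.1 for steps the files do not hold. The libraries held 52790319 (NOD) and 56483149 (CD1) UMIs over 1298073 and 1331542 barcodes. Membrane and secreted forms of a heavy chain are counted as 1 gene, and the strand setting was not found in the sources used.

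Cells were barcodes with 500 or more UMIs, 300 or more genes and no more than 10% of UMIs from the 37 mitochondrial genes, and no doublet caller was used in the values reported. A barcode meeting both the B and the plasma gate counted as plasma-like (166 NOD and 10 CD1). Other classes were T or NK (at least 2 UMIs of *Cd3d*, *Cd3e*, *Cd3g*, *Ncr1*, *Klrd1*), macrophage (at least 2 of *Csf1r*, *Adgre1*, *Fcgr1*) and endothelial (at least 3 of *Pecam1*, *Cdh5*, *Egfl7*), each meeting 1 such gate only and neither of the former, nor that of *Siglech* and *Ccr9* (at least 2 UMIs). UMIs were summed per class. Intervals at 95% were exact Poisson, Clopper-Pearson or conditional binomial, and no test was made. Genes compared between sums had at least 20 UMIs in all. The rule for named genes took the 10 members, the gene lists given in the text (a few of their genes are not reported here) and the 3 genes most like *Ighm*, *Igha* and *Jchain*. The call rule was tested on simulated data. The members and lists were chosen with earlier results of these data known. Alternatives changed the cell filter, doublets, gates, droplet range, weights, scaling and free RNA. Sequences were read with Biopython 1.88, sums made with numpy 2.4.6 and scipy 1.17.1 in Python 3.11.15, doublets scored in scanpy 1.11.5.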

Additional observations from a re-analysis of the deposited data

Results flagged for a closer look

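Barcodes that failed the cell filter still carried members. In NOD, 19 of them held at least 100 member UMIs each, 7081 in all, with a median of 203 and a highest of 2106, and *Igha* made up 53.7% of their heavy-chain UMIs. In CD1, 3 such barcodes held 650 member UMIs in all, with a highest of 332, and *Igha* made up 99.6%. Of these, 16 NOD and 3 CD1 barcodes lay above the mitochondrial limit. They were singled out because the comparisons above use none of them, and their counts lie above the 3 UMIs that a count of 0 allows.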

How the results depend on the processing

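Of the values that answer a comparison, 86 of the recomputed ones stayed within their own interval, or within 1.5-fold for a number of cells, 60 moved further and 5 turned their direction. The sum of the members in B cells (log2 NOD over CD1 of 0.39) turned to -0.51 without barcodes of another lineage gate, to -0.22 with at least 4 UMIs in the B gate, to -0.44 with 1 UMI of each gate gene, to -2.45 with barcodes of both gates counted in both, and to -0.46 with a checking gene required (chosen after seeing the data), and was 1.08 at no more than 5% mitochondrial UMIs. Single genes turned too, *Ighd* to -0.20 without the other lineages, *Igha* to -1.60 and *Iglc2* to -1.12 with both gates, and *Igkc* to 0.0476 at 5% mitochondrial UMIs. In empty droplets the summed members (1.02) stood at 0.16 for 1 to 50 UMIs, where *Jchain* turned to -0.000846, at 0.68 for 20 to 50 and at 1.06 by median-of-ratios scaling, and *Igha* made up 86.9% in NOD (1 to 50) and 97.6% in CD1 (20 to 50).

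The number of NOD B cells was 168 at 5% mitochondrial UMIs and 283 without other lineages, and that of CD1 was 6 and 7, then 9 with at least 4 UMIs, 8 with each gene, 25 with both gates and 9 with a checking gene. The plasma gate held 77 NOD barcodes at 5% mitochondrial UMIs, 85 without other lineages, 330 at 3 UMIs, 44 at 10 UMIs and 33 as the secretory set alone, and in CD1 1 without other lineages and 0 without the highest Scrublet scores, which leaves no CD1 share to give. *Ighm* plus *Ighd* in NOD B cells (77.0%) was 74.3% at 20% and 78.7% at 5% mitochondrial UMIs, 75.2% without other lineages, 2.39% with both gates, 73.4% with the B-surface set added (chosen after seeing the data) and 89.3% less the T or NK level. In CD1 (89.2%) it was 66.7% at 5% mitochondrial UMIs, 0.123% with both gates and 100% less the T or NK level. *Igkc* in B cells (53.3% of *Igkc* plus *Iglc2*) was 91.5% with both gates, 51.7% with the B-surface set and 55.4% with cells weighted equally in NOD, and 98.4% with both gates in CD1. The both-gate values take in the 166 NOD and 10 CD1 barcodes that meet both gates, the CD1 secretory set among them.

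For the whole NOD plasma gate, *Igha* made up 96.0% of heavy chains, with 99.2% at 5% mitochondrial UMIs, 87.6% without other lineages, 96.2% without the highest Scrublet scores, 95.5% at 3 UMIs, 96.4% at 10 UMIs, 96.6% in the secretory set, 95.5% without the highest barcode and 96.1% less the T or NK level. Weighted equally by cell it was 33.2%, since most cells of the gate are B-surface. In CD1 (94.8%) it was 70.4% without other lineages, 94.5% at 10 UMIs, 96.7% weighted equally and 94.4% without the highest barcode. *Igkc* in the NOD plasma gate (95.7%) was 97.0% at 5% mitochondrial UMIs, 94.8% without other lineages, 94.2% at 3 UMIs, 97.2% at 10 UMIs, 97.7% in the secretory set, 58.1% weighted equally and 95.5% without the highest barcode. In CD1 (98.4%) it was 97.8% without other lineages and 98.3% without the highest barcode. Shares of B cells with a UMI depend on depth. From thinned to all UMIs, *Ighm* went from 9.66% to 77.5% in NOD and from 13.3% to 66.7% in CD1, and *Igha* from 5.63% to 46.7% in NOD and from 0 to 26.7% in CD1. Where no construction is named, the cause was not tested. No paired analysis was possible because each strain has 1 library. The CD1 B values are limited by their 15 barcodes, with 37 heavy-chain UMIs in all.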

Other observations

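Some barcodes with many member UMIs lay outside the B and plasma gates. In NOD, 3 unassigned barcodes had at least 100 member UMIs, and the highest, with 1335 (1052 of them *Igha*), held 47.4% of the member UMIs of its class. In the others *Ighg2b* reached 179 UMIs and *Ighm* 77. In the T or NK class 1 NOD barcode had 196 member UMIs, 169 of them *Igha*, and 1 CD1 barcode had 118, which was 22.6% of the 523 in its class. *Jchain* supplied 73 of those 118.

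Across the 20 sums of UMIs (9 classes and the empty droplets of each library), the genes most like the members were found by Pearson's r of log2(CPM + 10) among 16947 genes, leaving out variable segments. *Jchain* was most like *Igha* (r = 0.99), followed by *Slpi*, a secreted protease inhibitor (0.94), and *Ighg2b* (0.93). For *Jchain* they were *Igha*, *Slpi* (0.94) and *Prg2* (0.94). For *Ighm* they were *Ms4a4c* (0.89), *Cd37*, a tetraspanin of B cells (0.88), and *E030030I06Rik* (0.88). The sums share libraries, depth and free RNA, so these are descriptions only.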
